A study of Rattus norvegicus with 12 samples.

Results

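The regions described here were 879 stretches of RNA enriched for N6-methyladenosine (m6A) that ranked higher in the retina of every diabetic rat than in the retina of every control rat. They were selected on summit pileup, the height of immunoprecipitated (IP) fragment coverage at the top of a peak. Within each of 6 peak lists, 1 per animal, all regions were ranked by pileup and given a percentile, where 100 is the region with the highest pileup. Peaks from different animals that shared at least 1 base were merged, which gave 12467 union regions. All 6 lists had a peak in 7098 of them, and 6463 of these were under 1000 bases long. A region was chosen where the lowest of the 3 diabetic percentiles exceeded the highest of the 3 control percentiles, which held for 879 of the 6463 (13.6%). The opposite order, with all diabetic below all control percentiles, held for 283 (4.38%). With percentiles taken over the 6463 shared regions alone the counts were 657 and 640, so the excess of higher over lower regions depended on the lists ranked. Because the pileup ranks chose the regions, their separation is a description and was not tested.

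The animals were male Sprague-Dawley rats in groups of 3. Diabetic rats had received streptozotocin, which destroys the insulin-producing beta cells of the pancreas, by intraperitoneal injection at 60 mg/kg on 5 days running after a 12 h fast. They counted as diabetic when fasting glucose exceeded 16.7 mmol/L at 1 week after the last injection. Control rats, whose genotype the labels give as WT, received citrate buffer over the same 5 days. Body weights were 107 ± 3.59 g in control rats and 102 ± 1.81 g in diabetic rats (SD, n = 3 each). Age and the time from injection to collection of the retina are not given in the sources used here. The regions could not be assigned to genes, because an annotation of the files' genome build was not used here, so the tissue label was not checked against retinal marker genes.

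m6A is the most common internal modification of mRNA. A nuclear complex built around the methyltransferases METTL3 and METTL14 places it, the demethylases FTO and ALKBH5 can remove it, and proteins of the YTH family bind it and steer the splicing, translation or decay of the transcript. In most transcripts it is concentrated in long internal exons and around the stop codon, and it is read out as narrow regions of enriched fragments when RNA pieces of about 100 nt are pulled down with an antibody to m6A. The pileup of such a region depends on how much of the transcript is present as well as on the share of its copies that carry the mark, and pileup alone cannot tell these apart. In a whole retina, fewer cells of a type and less RNA per cell cannot be told apart either.

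The depth of a list is set by the smaller of the IP and input libraries of an animal, to which the caller scaled the other. That library held 8175227 to 9030946 reads in control animals and 8729247 to 12354616 in diabetic animals, and the lists held 9082 to 10160 and 9731 to 10552 regions. The IP library was scaled down in all 3 diabetic animals and in control replicate 2, and was used unscaled in control replicates 1 and 3. To set heights from different depths side by side, each pileup was divided by the background floor of its library, the coverage expected if its reads were spread evenly over the effective genome. This ratio removes depth but not unequal efficiency of the pull-down.

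Among the 879 regions the gap between the lowest diabetic and the highest control percentile was small for most and large for a few. Its median was 2.34 percentile points (quartiles 0.865 and 5.12), and it reached 33.3. A gap of at least 5 points was found in 227 regions (25.8%), of at least 10 in 86 (9.78%) and of at least 20 in 11. The median percentiles of the regions were 52.8, 55.0 and 58.5 in control replicates 1, 2 and 3, and 67.8, 69.1 and 68.3 in diabetic replicates 1, 2 and 3. Over all 6463 shared regions the same medians were 55.5, 55.8 and 61.3 in the control lists and 59.0, 62.3 and 59.6 in the diabetic lists, so there the groups overlap. Mean percentiles differed between groups by a median of 10.6 points in the chosen regions and 1.97 in all shared regions.

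**Figure D1:**
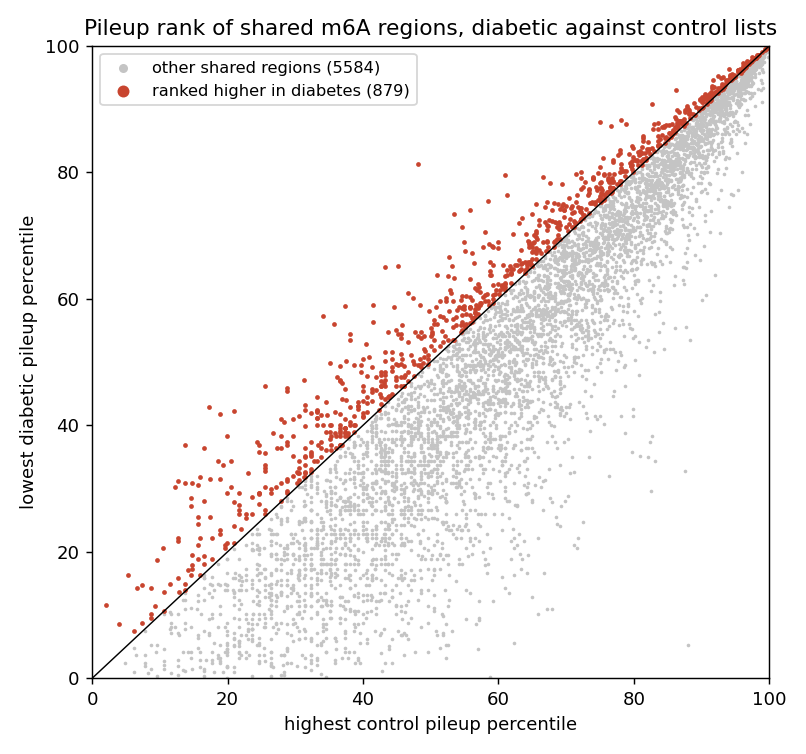
Highest control percentile (x axis) against lowest diabetic percentile (y axis) of summit pileup for the 6463 shared regions under 1000 bases, each point 1 region, with the line of equality. The 879 chosen regions (red) lie above the line by definition, most of them close to it, and the farthest lies 33.3 points above it.

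The control list that stood closest to the diabetic lists was that of replicate 3. It held the highest control percentile in 519 of the 879 regions (59.0%), against 60.2% of all shared regions, so it was the usual upper limit of the control group in both. The lowest diabetic percentile came from replicate 1 in 331 regions, replicate 2 in 257 and replicate 3 in 291. Without control replicate 3 the rule was met by 2107 regions, and without diabetic replicate 1 by 1337; a rule over fewer lists is easier to meet. Values of the animals lay closer together in the diabetic group, with a median SD over replicates of 2.55 percentile points in the chosen regions against 4.61 in controls. In all shared regions these SDs were 4.24 and 6.21.

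How many regions rank higher rather than lower depended on what the percentile was taken over. A percentile counts the weaker regions of its own list, and the lists differ in length, so a higher percentile in a longer list does not by itself show a change. Beside the 657 higher and 640 lower found over shared regions alone, with lists cut to equal length 604 ranked higher and 580 lower. The share of separated regions that ranked higher thus moved from 75.6% to 50.7% and 51.0%. Ranking by fold enrichment, the caller's ratio of pileup to local background, left the share at 78.8% (853 higher, 230 lower). Ranking by −log10 p left it at 79.4% (892 higher, 231 lower). These percentiles were again taken over whole lists. In 71.5% of shared regions the local background was at the floor in all 6 lists, where fold enrichment and −log10 p follow pileup. These rankings are therefore no separate check of the excess.

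Not all of the chosen regions kept their separation under another ranking. Of the 879, 565 (64.3%) were still separated in the same direction over shared regions alone, 562 with equal list lengths, 698 by fold enrichment and 772 by −log10 p. Under all 4 of these rankings, required together after the data had been seen, 441 regions (50.2%) were separated, and under none of them 43. The share that passed all 4 was 27.2% of the 246 regions with a gap under 1 point, 54.5% of the 255 with a gap of 2 to 5 points and 88.4% of the 86 with a gap of 10 points or more. All 4 rankings use the IP pileup that chose the regions, and 86.2% of the 441 were at the floor in every list. Passing them is therefore no separate check, and a larger gap is easier to keep. Under fold enrichment ranking 4 of the 879 regions were ranked lower in diabetes, and under the other 3 rankings none was.

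**Figure D2:**
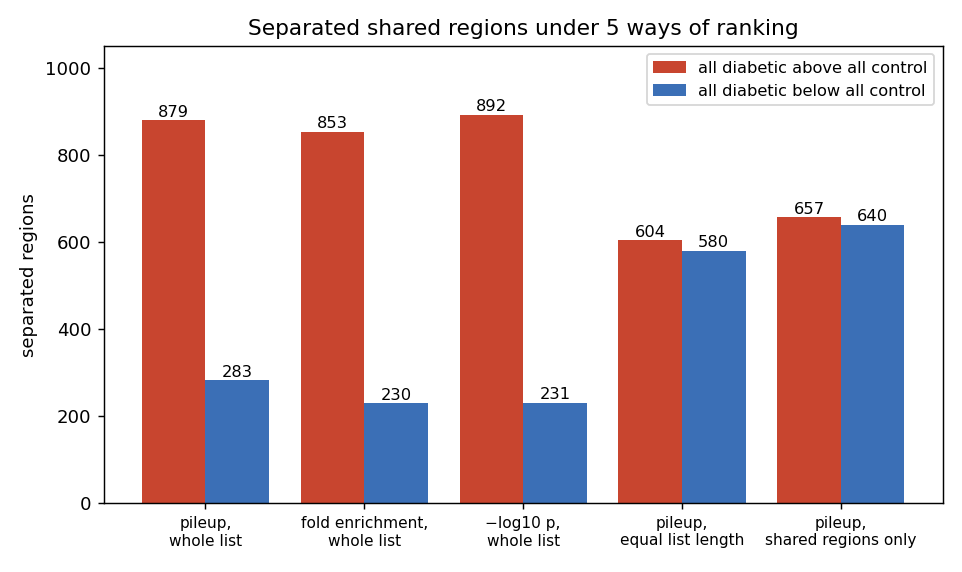
Number of shared regions with all diabetic above all control percentiles (red bars) or all below (blue bars), by the value ranked and the regions the percentile was taken over (x axis). With whole lists the red bars stand at 853 to 892 and the blue at 230 to 283, while with equal list lengths or shared regions only both colours stand between 580 and 657.

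On the scale of pileup over the floor, the chosen regions were moderately higher in diabetic animals. The difference of the group means of log2 values had a median of 0.37 (quartiles 0.28 and 0.49), a ratio of 1.30, and over all shared regions it was 0.08. The lowest diabetic value exceeded the highest control value on this scale in 595 of the 879 regions (67.7%), against 10.3% of all shared regions. For fold enrichment this held in 506 (57.6%), against 9.27% of all shared regions. These measures come from the same IP libraries as the ranks that chose the regions, so nothing is read from the excess.

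The largest gap belonged to a region of 544 bases at chr5:150684342-150684885. Its pileup was 4.42, 4.81 and 5.61 times the floor in control replicates 1, 2 and 3 and 15.7, 12.5 and 15.1 times in diabetic replicates 1, 2 and 3. All diabetic values were more than 2 times the highest control value. Its means were 4.95 ± 0.611 and 14.4 ± 1.73 (SD, n = 3 each), a ratio of 2.92. The percentiles were 36.0, 40.9 and 48.1 in the control lists and 85.6, 81.4 and 86.1 in the diabetic lists, so every control list held it below its middle and every diabetic list held it above percentile 80. It was called 200, 237 and 266 bases wide in the control lists and 544, 493 and 480 bases in diabetic animals, with 1 summit in every list, and the summits of all lists lay within 10 bases.

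A second chosen region lay 382 bases away at higher coordinates of the same chromosome, at chr5:150685268-150685946. It had pileups of 4.48, 4.71 and 6.65 times the floor in the control lists and 18.1, 9.77 and 15.2 in the diabetic lists, with a gap of 18.2 points. The ratio of means was 2.72, close to that of the first region, but the diabetic values were more spread, with replicate 2 the lowest. For both regions, the local background estimated from input was at the floor in all 6 lists, so no excess of input RNA over the floor was recorded at either.

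Among the leading regions, 3 others reached a ratio of means above 2.6, with wider spread between animals. At chr11:89008681-89009171 the pileup was 4.30, 2.48 and 3.16 times the floor in the control lists and 6.75, 9.996 and 15.6 in the diabetic lists. The diabetic values differed among themselves by more than the gap between the groups, although the lowest of them was still above every control. At chr10:109422547-109423082 the values were 3.28, 4.26 and 5.12 in the control lists and 8.07, 12.4 and 14.1 in the diabetic lists. At chr10:4761868-4762349 they were 6.87, 3.37 and 5.56 in the control lists and 12.3, 12.4 and 16.6 in the diabetic lists. Diabetic replicate 3 was the highest of the 6 lists in all 3 of these regions.

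Other leading regions showed smaller ratios with tight replicates. At chr10:20845742-20846121 the pileup was 5.67, 5.95 and 5.83 times the floor in the control lists and 10.5, 9.54 and 10.4 in the diabetic lists, and the ratio of means was 1.74. At chr5:156564669-156564932 it was 4.42, 4.17 and 4.63 in the control lists and 7.41, 6.67 and 6.98 in the diabetic lists. In both regions the spread within each group was much smaller than the distance between the groups. At chrX:11080292-11080496, a narrow region of 205 bases, it was 2.87, 2.74 and 3.16 in the control lists and 4.76, 4.36 and 4.89 in the diabetic lists. This region stood among the weakest of the control lists, with percentiles of 8.31, 5.97 and 13.7, and at 38.7, 36.9 and 44.9 in the diabetic lists.

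The region with the next largest gap after the leading one, 25.7 points, lay at chr8:23028133-23028492. Its percentiles were 17.2, 14.8 and 6.15 in the control lists and 42.9, 51.8 and 47.2 in the diabetic lists, and its ratio of mean pileups over the floor was 1.72. At chr11:74052397-74052851 the pileup was 2.39, 3.21 and 3.43 times the floor in the control lists and 7.80, 4.75 and 5.02 in the diabetic lists. At chr5:153568763-153569083 it was 5.13, 3.69 and 3.82 in the control lists and 8.46, 9.67 and 7.50 in the diabetic lists. These regions had a single summit in every list, except the one on chromosome 8, which had a second summit in diabetic replicate 2.

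The remaining 5 of the 15 regions with the largest gaps were chr6:41798992-41799435, chr14:39229232-39229537, chr11:25343181-25343768, chr1:245269823-245270278 and chr14:39228653-39228917, with gaps of 18.5 to 21.3 points. Their ratios of means lay between 1.54 and 1.88. The pair on chromosome 14 lies 314 bases apart, and its members had control values of 2.73 to 3.82 times the floor and diabetic values of 3.89 to 6.32. At chr11:25343181-25343768 the control lists held 1, 1 and 3 summits and each diabetic list 3. Over all 15 regions the ratio of means ran from 1.54 to 3.25, and 14 of them were at the background floor in every list. In each of the 15, the fold enrichments and the pileups of all diabetic lists, before and after division by the floor, exceeded those of all control lists. Over shared regions alone the gaps of the 15 were 8.83 to 44.1 points, and 13 of the 15 were separated under all 4 other rankings.

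**Figure D3:**
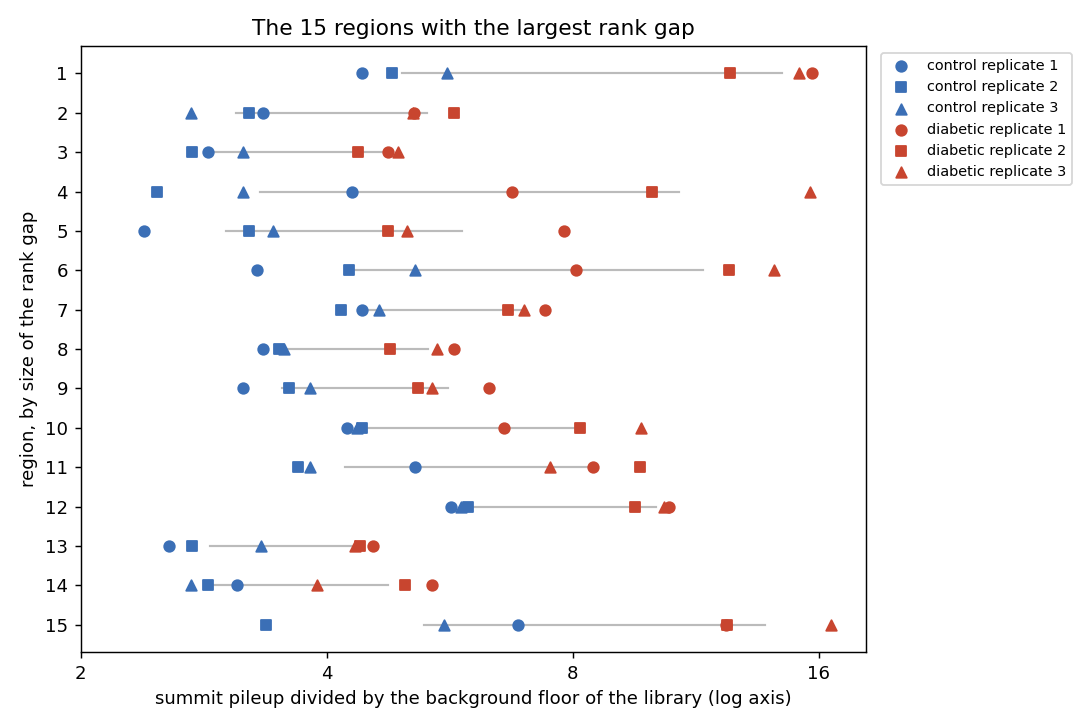
Summit pileup divided by the background floor of the library (x axis, log scale) for the 15 regions with the largest rank gap (y axis, 1 is the largest), 1 point per animal, control in blue and diabetic in red, with a grey line between the group means. Every diabetic point lies to the right of every control point of its region, and the widest scatter within the diabetic group is that of region 4 (6.75 to 15.6).

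The chosen regions with the highest pileups differed from these in kind. The 8 with the highest diabetic percentiles all stood above 97 in every list, with gaps of 0.00506 to 0.215 points, since ranks near the top leave little room. Their ratios of mean pileup over the floor were 1.07 to 1.39, and in 7 of the 8 the groups overlapped on that scale. At chr5:172981075-172981389 the pileup was 90.2, 101 and 129 times the floor in the control lists and 123, 109 and 119 in the diabetic lists, and the local background was 29.1 to 44.8 times the floor. At chr6:8249798-8250638 it was 93.3, 102 and 119 in the control lists and 113, 112 and 110 in the diabetic lists, with control replicate 3 the highest of all lists. None of the 8 was separated when ranked by fold enrichment.

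In 5 of these 8 regions the highest single pileup over the floor was nevertheless diabetic. At chr1:136739099-136739820 the values were 55.7, 68.9 and 83.1 in the control lists and 86.1, 76.1 and 86.3 in the diabetic lists, and at chr5:168141041-168141579 they were 37.2, 38.9 and 56.6 against 67.6, 50.3 and 67.0. The region at chr5:150083351-150084223 had 85.6, 76.1 and 87.6 in the control lists and 93.7, 115 and 104 in the diabetic lists, the only 1 of the 8 whose groups did not overlap. A diabetic list was also the highest at chr8:91312460-91312820 and chr4:98044310-98044675. At chr17:82016991-82017559 the highest value was that of control replicate 3, at 84.2, against 84.1 in diabetic replicate 1. In all 8 the local background was above the floor in every list.

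At the threshold itself, regions inside and outside were alike. The last regions inside were chr18:56917504-56918316, chr6:8249798-8250638 and chr16:48845306-48846186, with gaps of 0.00593, 0.00506 and 0.00154 points. The first outside were chr4:10818560-10819160, chrX:112392304-112393035 and chr9:16085930-16086544, which missed by under 0.001 points. The last of these ranked at 99.98 in every list. At chr16:48845306-48846186 the pileup was 6.33, 8.11 and 6.98 times the floor in the control lists and 8.85, 8.24 and 10.4 in the diabetic lists, and at chr4:10818560-10819160 it was 7.16, 9.36 and 11.4 against 13.9, 11.4 and 10.6.

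Regions of every height were represented. Of the 646 shared regions whose mean percentile over the 6 lists was 90 or more, 108 were chosen (16.7%), and from percentile 30 upwards the share lay between 12.7% and 16.7% in each band of 10 percentiles. Below percentile 30 it was 6 to 11.2%. Regions ranked lower in diabetes made up 9.91% of those at 90 or more and 2.95% of the regions between percentiles 20 and 30. The median log2 difference of pileup over the floor of the chosen regions was similar from band to band, at 0.32 to 0.42. The median gap fell from 5.66 points between percentiles 20 and 30 to 0.445 above percentile 90. Of the 635 shared regions of 1000 bases or more, which the length limit leaves out, 100 (15.7%) met the rank rule and 39 met the opposite one.

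In form the chosen regions resembled other shared regions. Their median length was 431 bases (quartiles 316 and 587), against 410 for all shared regions under 1000 bases. A single summit in every list was found in 409 (46.5%), against 49.3%, and the highest summits of the 6 lists lay within 50 bases of each other in 667 (75.9%), against 76.4%. The called width was 316, 330 and 377 bases in the control lists and 390, 400 and 387 in the diabetic lists (medians over the 879), so the groups did not overlap, while over all shared regions it was 314, 310 and 370 against 346, 372 and 346. All 3 diabetic widths exceeded all 3 control widths in 298 regions (33.9%), against 13.0% of all shared regions. Width comes from the same IP coverage as the ranks and is given as a description. More summits in every diabetic than in every control list were found in 11 regions (1.25%), against 0.511% of all shared regions.

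Among the 3 chosen regions with the most summits, the numbers of summits overlapped between the groups. At chr8:127921847-127922811 there were 4, 4 and 4 summits in the control lists and 3, 5 and 4 in the diabetic lists, and the pileup was 14.5, 14.4 and 14.9 times the floor against 19.1, 19.1 and 18.7. At chr8:75606848-75607811 there were 4, 5 and 5 against 4, 4 and 4, with pileups of 42.7, 39.5 and 40.9 against 51.6, 58.6 and 63.8. At chr13:72742410-72743225 there were 2, 1 and 2 against 3, 4 and 2, and the called width was 395, 348 and 363 bases in the control lists and 800, 791 and 524 in the diabetic lists. In all 3 regions the pileups of the groups did not overlap. Ties in summit number were broken by the larger rank gap, so this was partly set by the choice.

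The input libraries carry a further measure, which the rule did not rank on, although each list was called against the input of its animal. The local background of a region is the input coverage around its summit, never below the floor, and in 634 of the 879 regions (72.1%) it was at the floor in all 6 lists, against 71.5% of all shared regions. For these 634 the fold enrichment carries no information on local input. In 90 regions (10.2%) the background was above the floor in all 6 lists, and there the median local input was also greater in each diabetic list. This median was 1.68, 1.82 and 1.75 times the floor in the control lists and 2.38, 2.00 and 2.37 in the diabetic lists, so these medians did not overlap. Over all 722 shared regions above the floor in all lists they were 1.90, 2.17 and 2.19 against 2.43, 1.89 and 2.06, and overlapped.

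The mean log2 background was higher in diabetic animals in 82 of the 90 regions (91.1%), by a median of 0.26, against 411 of 722 (56.9%) and a median of 0.04 over all tested regions. Without diabetic replicate 1 the median over all tested regions was -0.05 (43.1% higher in diabetic animals) and that of the 90 was 0.20 (73 of 90 higher). Without diabetic replicate 2 these medians were 0.12 (68.6%) and 0.39 (82 of 90), and without control replicate 1 they were 0.0070 (50.7%) and 0.26 (78 of 90). For the same 90 regions the median log2 difference was 0.37 in IP pileup over the floor and 0.09 in fold enrichment, which divides 1 by the other. Over the 722 these were 0.05 and 0.00402. The IP ranks chose the 90 regions and fold enrichment contains the same pileup, so nothing is read from these differences. A test of every region separately, with limma over the 722 and Benjamini-Hochberg adjustment, called no region (0%), with a smallest adjusted p of 0.259. At an unadjusted p under 0.05 there were 42 regions, 14 of them among the 90 and all 14 higher in diabetic animals. The 14 of 42 became 9 of 35 without control replicate 1 and 8 of 56 without diabetic replicate 1. They became 27 of 59 without diabetic replicate 2 and 8 of 35 without diabetic replicate 3. In each case the chosen regions counted were all again higher, and these counts at an unadjusted p are a description. The part of local RNA amount in the ranks of the 634 regions at the floor was not tested. Over all 879 regions, the background of every diabetic list exceeded that of every control list in 25 (2.84%), against 1.18% of all shared regions.

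**Figure D4:**
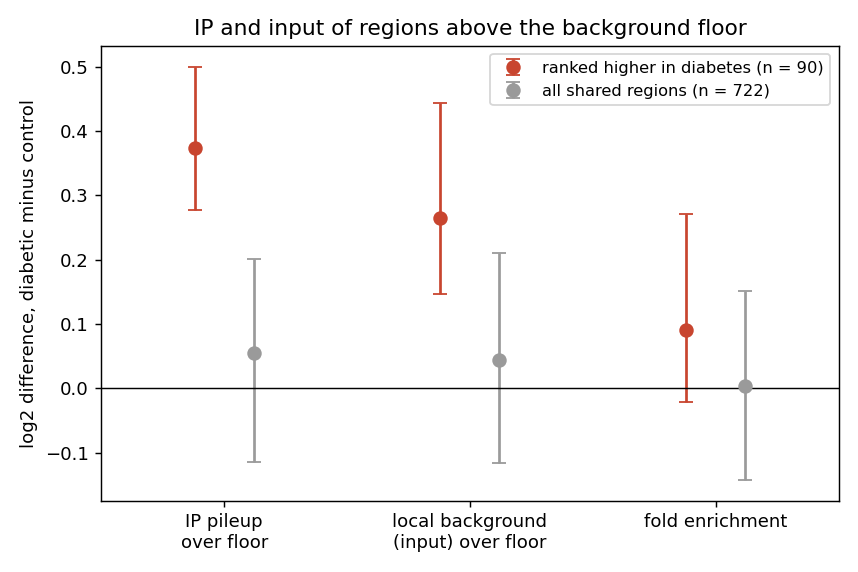
Difference of mean log2 values, diabetic minus control (y axis), in IP pileup over the floor, local input background over the floor and fold enrichment, for the shared regions with background above the floor in all 6 lists. Points are medians over regions and bars run from the lower to the upper quartile. In the 90 regions ranked higher in diabetes (red) the medians are 0.37, 0.26 and 0.09, and in all 722 (grey) they are close to 0. The red regions were chosen on IP pileup, which also enters the fold enrichment.

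Regions ranked higher in diabetes lay next to one another more often than other pairs of neighbours did. Chosen regions had 482 links to another shared region within 10 kb, of which 130 (27.0%) led to a chosen region and 9 (1.87%) to a region ranked lower in diabetes. Over neighbours of any shared region these shares were 12.0% and 5.79%. Next to a region ranked lower, 3.86% of neighbours ranked higher and 21.5% ranked lower. The share of chosen neighbours was 26.7% under 1 kb, 26.5% at 1 to 5 kb, 28.1% at 5 to 10 kb, 17.8% at 10 to 50 kb and 15.2% at 50 to 100 kb, against 10.7% to 12.6% next to any shared region. With percentiles over shared regions alone it was 17.1% under 1 kb and 11.6% at 50 to 100 kb, against 7.74% and 8.05%. Neighbouring regions can belong to 1 transcript, which these files do not show, and no test was made.

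**Figure D5:**
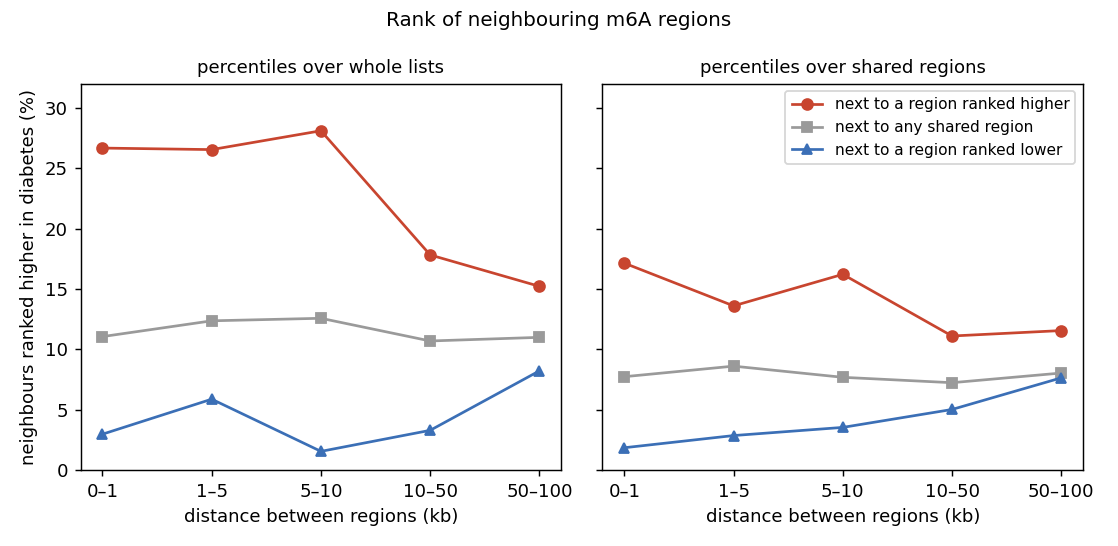
Share of neighbouring shared regions that ranked higher in diabetes (y axis, percent) by distance (x axis, kb), next to a region ranked higher (red), any shared region (grey) or a region ranked lower (blue), with percentiles over whole lists (left) or shared regions only (right). The red line starts at 26.7% on the left and 17.1% on the right and stays above the grey line at each distance.

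The chosen regions formed 56 runs in which neighbours were at most 10 kb apart, 51 with 2 regions and 5 with 3, which together held 117 regions (13.3%). In 4703 bases of chromosome 15, from 12424559 to 12429261, all 3 shared regions were chosen. The first of them had pileups of 3.10, 2.99 and 3.49 times the floor in the control lists and 4.72, 4.98 and 4.93 in the diabetic lists, and a gap of 18.4 points. The other 2 differed less, with ratios of means of 1.09 and 1.25. On chromosome 11, from 82740413 to 82747827, the 3 regions had ratios of 1.52, 1.16 and 1.38 and gaps of 4.10, 6.78 and 7.85 points.

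The other runs of 3 spanned chr17:18397933-18410437, chr9:93368998-93374962 and chr3:111737585-111744235. Ratios of means in these 9 regions ran from 1.13 to 1.65, the highest at chr9:93374305-93374540, where diabetic replicate 2, at 12.9 times the floor, lay below control replicate 3, at 13.5. In each of the 5 runs the chosen regions were the only shared regions under 1000 bases in the span. The leading region at chr5:156564669-156564932 also had a chosen neighbour, at chr5:156563448-156564088, 580 bases away, with values of 6.63, 6.21 and 8.12 against 8.19, 9.08 and 7.74 and a gap of 0.834 points.

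All 20 autosomes and chromosome X carried chosen regions. Their share among the shared regions was highest on chromosomes 11 (37 of 176, 21.02%), 15 (35 of 174, 20.1%) and X (24 of 122, 19.7%) and lowest on chromosomes 7 (39 of 357, 10.9%) and 10 (61 of 548, 11.1%). With percentiles over shared regions alone the highest shares were 15.5% on chromosome 15, 14.8% on chromosome 11 and 14.6% on chromosome 16, and chromosome X had 11.5%. Neither shared region of chromosome Y was chosen.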

How the data were processed

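Retinal RNA of 3 control and 3 diabetic rats was profiled by m6A immunoprecipitation with matched input. The submitters' processing notes list MACS2 2.1.0, BWA 0.7.12, fastp 0.19.11 and CASAVA. Peaks were called by the authors for each animal against its own input at q 0.05, per the file headers, keeping duplicates and calling summits, with an effective genome size of 61536640. BWA does not split reads over introns. The genome build is not given in the sources used here. Coordinates are those of the deposited files, 1-based.

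The deposited pileup is a coverage signal after scaling of the larger library to the smaller. The deposited fold enrichment is the ratio of that height to the local background, and the deposited −log10 p and −log10 q compare the same 2 quantities. Both header cells of the −log10 columns are damaged, and the columns were told apart by the caller's column order. These are the authors' values for each peak. Local background was derived here as pileup divided by fold enrichment (the caller adds 1 to pileup and to background, which was undone), and counted as at the floor within 0.2%.

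Lines with the same start and end were joined into 1 region with its highest pileup, and regions were merged and ranked in Python 3.11.15 with pandas 2.3.3. The input background was tested with limma 3.58.1 in R 4.3.3 on log2 values, over shared regions above the floor in all 6 lists. Replicates are separate animals per the labels. Both procedures were tested on simulated data. The members and lists were chosen with earlier results of these data known. Regions named were the 15 with the largest gap, the 8 with the highest diabetic percentiles, 3 on each side of the threshold and the 3 with the most summits. Members within 10 kb of another are given as counts, with runs of 3 and the neighbours of leading regions described. Alternatives covered the value ranked, the population and length of the lists, merging, thresholds and each library left out. Genes, transcript parts and sequences were not analysed here.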

Additional observations from a re-analysis of the deposited data

How the results depend on the processing

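The number of regions ranked higher in diabetes (879) stayed within 1.5 times of that value in 11 of the 12 alternatives that kept all 6 lists, and was 227 with a gap of at least 5 percentile points. Leaving out 1 library gave 1133 to 2107. The number ranked lower (283) was 640 over shared regions alone, 580 with equal list lengths, 144 with background at the floor in all lists, 56 with a gap of at least 5 points, and 366 to 742 without 1 library. Fewer lists, larger margins and the limit to regions at the floor move these counts by construction, and for the others the cause was not tested. The limma test of local background called 0 regions in each alternative run, with smallest adjusted p values of 0.0518 (without diabetic replicate 2) to 0.843. With the replicate block the limma test also called 0 regions. Of the 722 tested, 26 had an unadjusted limma p under 0.05, against 42 without the block. Same-numbered libraries did not deviate together (correlations of -0.181, -0.0749 and -0.0171, against -0.0609 to 0.130 for other pairs), so the numbers were not taken to pair the animals.

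The gaps of the 15 leading regions stayed above 0 by fold enrichment, by −log10 p, over shared regions alone and with 1 library left out. Leaving out a list can lower a gap only where the merged regions change, so that part was nearly fixed in advance and is no check. In 14 of the 15 the background was at the floor in every list, where fold enrichment follows pileup. With equal list lengths added, 13 of the 15 were separated under all 4 other rankings. Gaps of regions at the top of the lists did not all stay above 0 under other rankings. Ranked by fold enrichment, they became -11.2 (chromosome 5, 172981075), -0.653 (chromosome 6, 8249798), -8.40 (chromosome 5, 150083351), -1.20 (chromosome 1, 136739099), -0.676 (chromosome 17, 82016991), -8.42 (chromosome 8, 91312460), -8.98 (chromosome 5, 168141041) and -1.44 (chromosome 4, 98044310), and -0.736 at the threshold (chromosome 16, 48845306). Ranked by −log10 p, 5 of the same regions had -2.18, -0.0382, -0.0126, -0.00274 and -0.777 (172981075, 8249798, 150083351, 82016991 and 91312460), 98044310 had -0.0724 and 48845306 had -0.536. Over shared regions alone 150083351 had 0, chromosome 18, 56917504 had -0.0232 and 48845306 had -6.84.

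Depth limits how finely weak regions can be ordered, since pileups rest on whole fragments and regions can tie in any list. The limma test covers 90 of the 879 regions, and a background below the floor was not detectable.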

Other observations

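Input background can be followed in single regions, chosen here after their values were seen as the 3 of the 90 testable members with the smallest p in the limma test. At chr2:150881847-150882431 the local background was 2.54, 1.68 and 1.58 times the floor in the control lists and 3.99, 3.58 and 2.96 in the diabetic lists, a log2 difference of 0.88 ± 0.23 (SE; limma adjusted p = 0.493). Its fold enrichments were 6.91, 9.87 and 12.4 in the control lists and 6.35, 5.97 and 8.69 in the diabetic lists, lower on average in the diabetic group while the pileup rank was higher. At chr18:18079442-18079934 the background was 2.67, 3.32 and 3.17 against 5.26, 4.51 and 4.45, and the fold enrichments overlapped, at 2.43, 2.64 and 2.69 against 2.89, 2.68 and 2.61. At chr19:43193208-43193787 the background was 1.64, 1.38 and 1.75 against 3.18, 2.05 and 2.63, and the fold enrichments were 5.70, 10.04 and 7.32 against 6.08, 8.43 and 6.46.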
